A study of Mus musculus with 6 samples.

Results

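The Krueppel-like factors described here are 10 zinc-finger transcription factor genes, Klf2, Klf3, Klf4, Klf5, Klf6, Klf7, Klf9, Klf10, Klf13 and Klf15, read by gene symbol from a table of 23284 genes in whole mouse lung. RNA was sequenced from the lungs of 3 mice carrying the Fra-2 transgene (Fra-2tg) and 3 wild-type littermates (WT), all 6 weeks old and of C57BL/6 background, with no treatment listed. Fra-2 is the protein of Fosl2 and a partner of Jun proteins in the AP-1 transcription factor. Each library is 1 mouse, so the tests measure the spread between mice. The promoter of the transgene and the cells in which it acts are not given in the sources used here.

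Krueppel-like factors bind CACCC and GC-rich sequences through a conserved zinc-finger domain, and differ outside it in whether they recruit activators or repressors. In lung, Klf2 is best known from endothelium and circulating lymphocytes, where it keeps cells quiescent, and Klf4 and Klf5 from endothelium, epithelium and smooth muscle. Klf9 and Klf15 are classical glucocorticoid-responsive genes, and Klf10 was found as an early response gene of TGF-beta.

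Of the 10 genes, 2 fell and none rose in Fra-2tg lungs. Klf15, a regulator of amino acid and lipid metabolism, was at 0.391 times the WT mean, and Klf13, a regulator of lymphocyte and heart genes, at 0.818 times. Klf2, the most abundant member, averaged 1.71 times the WT mean, but its groups overlapped and it did not pass the test. The test was limma on log2(FPKM + 1), two-sided, over the 14855 genes that averaged 0.5 FPKM or more. FPKM are sequenced fragments per gene, scaled for transcript length and library size, and a gene was called at a Benjamini-Hochberg adjusted p under 0.05. All 10 members passed the filter.

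The share of members called was close to that of all genes, of which 26.7% were called in either direction. In limma's fit 0 of 10 members were called higher, where 13.6% of all tested genes were, and 2 of 10 were called lower, where 13.0% of all tested genes were. The calls over all genes were 2027 higher and 1936 lower, but 1148 higher and 3438 lower when FPKM sums were set equal without the secretory genes Sftpc and Scgb1a1. At an unadjusted p under 0.05, 2 members were higher (Klf2 and Klf6) and 2 lower (Klf13 and Klf15). The groups did not overlap for 2 of the 10 genes, both lower. Of all tested genes 45.7% had separate groups, 23.3% higher and 22.4% lower. Members had a median log2 fold change of -0.15, and all tested genes one of 0.00.

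Promoters of 4 members are shown, and no expression result rests on them. Klf15 and Klf13 are the called genes and Klf2 is the most abundant. Klf9 is the single member, of the 8 searched, with a match to loose AP-1 type letters. RefSeq sequences of build GRCm38.p6 were found for 8 of the 10 members, not for Klf5 or Klf10. They run from 250 bases before to 50 bases after the transcript start and are written 5′ to 3′ on the gene's strand. They lie at chr6:90462326-90462625 (+ strand) for Klf15, chr7:63938866-63939165 (- strand) for Klf13, chr8:72318812-72319111 (+ strand) for Klf2 and chr19:23140976-23141275 (+ strand) for Klf9. Capitals mark matches, on either strand, to the AP-1 letters TGANTCA, the MEF2 letters (CTA and TAG with any 4 bases between them), the CACCC letters CCACCC and the GC box letters GGGCGG.
Klf15: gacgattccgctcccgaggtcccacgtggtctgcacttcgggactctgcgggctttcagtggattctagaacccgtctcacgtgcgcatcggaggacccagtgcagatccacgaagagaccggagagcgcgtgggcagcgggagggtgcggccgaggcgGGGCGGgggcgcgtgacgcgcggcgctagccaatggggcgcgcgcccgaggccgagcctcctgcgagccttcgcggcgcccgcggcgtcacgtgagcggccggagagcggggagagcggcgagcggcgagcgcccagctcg
Klf13: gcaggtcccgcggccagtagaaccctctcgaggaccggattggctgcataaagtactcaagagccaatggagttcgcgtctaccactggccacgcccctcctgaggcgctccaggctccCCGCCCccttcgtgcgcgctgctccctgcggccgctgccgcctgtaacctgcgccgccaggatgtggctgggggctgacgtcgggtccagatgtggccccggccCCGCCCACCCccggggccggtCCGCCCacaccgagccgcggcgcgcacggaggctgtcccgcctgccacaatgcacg
Klf2: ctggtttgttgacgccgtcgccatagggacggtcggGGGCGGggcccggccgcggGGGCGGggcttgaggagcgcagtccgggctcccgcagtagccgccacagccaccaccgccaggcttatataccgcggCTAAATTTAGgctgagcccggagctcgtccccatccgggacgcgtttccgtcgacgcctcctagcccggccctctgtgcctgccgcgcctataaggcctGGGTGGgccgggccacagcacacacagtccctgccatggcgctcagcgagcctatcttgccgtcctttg
Klf9: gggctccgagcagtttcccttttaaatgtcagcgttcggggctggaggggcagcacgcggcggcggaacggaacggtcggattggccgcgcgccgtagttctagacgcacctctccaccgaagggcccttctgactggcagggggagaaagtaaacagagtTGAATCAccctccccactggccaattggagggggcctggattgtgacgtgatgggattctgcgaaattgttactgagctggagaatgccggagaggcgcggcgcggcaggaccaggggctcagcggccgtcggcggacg

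Counting the transcript start as 0, the Klf2 promoter held 1 MEF2 match, CTAAATTTAG, beginning at -118. MEF2 factors are known to switch on Klf2 downstream of the kinase ERK5. Among 32851 RefSeq promoters of the same length, 3.69% held such a match, and no other of the 8 members did. The Klf9 promoter held 1 AP-1 match, TGAATCA, beginning at -89, and 7.81% of all promoters held one. The letters searched are looser than the consensus site of Fos and Jun dimers, and TGAATCA is not that consensus. A GC box was present in 7 of the 8 members, Klf9 being the exception, and in 35.7% of all promoters. Members' promoters were rich in G and C, at 73.3% for Klf15, 72.0% for Klf13 and 69.3% for Klf2, where the median promoter had 52.7%. The CACCC letters occurred in the promoters of Klf2, Klf3, Klf7 and Klf13, against 31.5% of all promoters. In Klf13 the CACCC match at -23 overlaps the GC box at -27. These matches describe letters only.

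Klf15 is induced by glucocorticoids and controls enzymes of amino acid breakdown, the glucose transporter Slc2a4 and lipid use in muscle, liver and fat. It occupies chr6:90462576-90475238 on the + strand (GRCm38, GENCODE M21). Fra-2tg lungs had 3.74, 5.56 and 6.37 FPKM, against 12.7, 13.9 and 13.5 FPKM in WT lungs. Every Fra-2tg value was below every WT value, and the Fra-2tg mice differed more from each other, with a coefficient of variation of 25.8%, against 4.67% in WT. The mean was 5.22 ± 1.35 FPKM in Fra-2tg and 13.3 ± 0.623 FPKM in WT (SD, n = 3 each), and the log2 fold change -1.23 ± 0.16 (SE; limma adjusted p = 0.00315). It was called in each of the 17 alternative settings.

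Klf13 binds GC-rich promoters and is known in T lymphocytes as an activator of the chemokine gene Ccl5. Its gene lies at chr7:63886351-63938915 on the - strand. Fra-2tg lungs had 23.8, 22.0 and 26.0 FPKM, against 30.7, 27.7 and 29.4 FPKM in WT lungs. The groups were separate, though the highest Fra-2tg mouse and the lowest WT mouse were close. Means were 23.9 ± 2.00 FPKM in Fra-2tg and 29.3 ± 1.49 FPKM in WT (SD, n = 3 each), and the log2 fold change was -0.28 ± 0.08 (SE; limma adjusted p = 0.0355). The call was lost when FPKM sums were set equal (adjusted p = 0.202 in limma). It was also lost without Fra-2tg replicate 1 (0.0977), Fra-2tg replicate 2 (0.0833), WT replicate 1 (0.0983) or WT replicate 3 (0.104), all limma adjusted p.

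**Figure D1:**
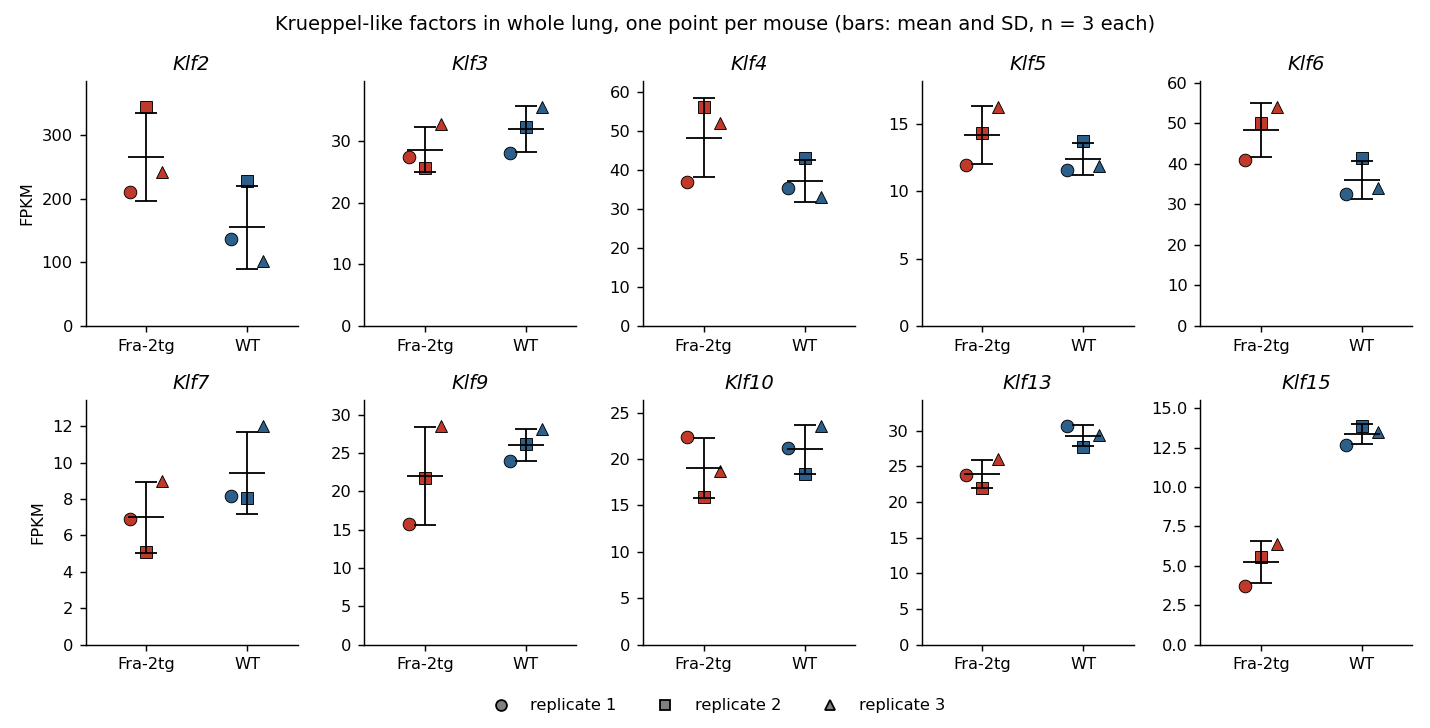
FPKM of the 10 Krueppel-like factors in each lung, with Fra-2tg left of WT, symbols for the replicates, and the mean and SD (n = 3 each). Klf15 lies at 3.74 to 6.37 FPKM in Fra-2tg and 12.7 to 13.9 FPKM in WT, Klf13 is the other gene with separate groups, and Klf2 has the widest range in FPKM.

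The genes nearest to these 2 in profile were found as the smallest root mean square difference of log2(FPKM + 1), centred on each gene's mean, over the 6 libraries. For Klf15 they were Crispld2, a secreted protein, at a difference of 0.099, and Acer2, an alkaline ceramidase, at 0.125. Crispld2 had 11.5, 17.9 and 18.9 FPKM in Fra-2tg, against 40.2, 35.0 and 39.0 FPKM in WT, and Fra-2tg replicate 1 was the lowest library for both Crispld2 and Klf15. Acer2 had 39.0, 56.2 and 54.0 FPKM in Fra-2tg, against 102.7, 99.6 and 119 FPKM in WT. For Klf13 the nearest were Caskin2 (0.028), a scaffold protein, and Zbtb7a (0.030), a zinc-finger repressor, at 0.809 and 0.803 times WT. All 4 were called lower (limma adjusted p = 0.00437, 0.00345, 0.0268 and 0.0211 in that order). Since they were chosen for their likeness to the called members over the same libraries, their calls are no separate evidence.

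Klf2 was first described as lung Krueppel-like factor. In endothelium it is induced by laminar flow and raises Nos3 and Thbd, and in lymphocytes it raises S1pr1. The gene lies at chr8:72319033-72321656 on the + strand. Fra-2tg lungs had 210.0, 344 and 242 FPKM, against 136, 227 and 102 FPKM in WT lungs. WT replicate 2 was above Fra-2tg replicate 1, and mice of each genotype spread widely, over 1.64-fold in Fra-2tg and 2.24-fold in WT. Klf2 averaged 265 ± 69.7 FPKM in Fra-2tg and 155 ± 64.9 FPKM in WT (SD, n = 3 each). Its log2 fold change was 0.82 ± 0.31 (SE; 95% interval 0.08 to 1.56 with no adjustment for other genes) and the limma adjusted p was 0.0967. Without WT replicate 2 it was 1.13 (limma adjusted p = 0.0214), and without any other single library the adjusted p lay between 0.118 and 0.248.

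Klf4, a relative of Klf2 in endothelium and a differentiation factor of epithelium and monocytes, had 36.9, 56.0 and 51.9 FPKM in Fra-2tg, against 35.2, 43.1 and 33.0 FPKM in WT. WT replicate 2 again lay above Fra-2tg replicate 1. The log2 fold change was 0.36 ± 0.17 (SE; interval -0.05 to 0.77; limma adjusted p = 0.166), and without Fra-2tg replicate 1 it was 0.54 (limma adjusted p = 0.0386). Klf6, an injury-induced activator of macrophages, endothelium and epithelium, had 41.0, 50.2 and 53.9 FPKM in Fra-2tg, against 32.4, 41.4 and 34.1 FPKM in WT. Only WT replicate 2 crossed into the Fra-2tg range, just above Fra-2tg replicate 1. Klf6 had a log2 fold change of 0.42 ± 0.13 (SE; interval 0.11 to 0.72; limma adjusted p = 0.0541), and passed the threshold without Fra-2tg replicate 1 (limma adjusted p = 0.0336), without WT replicate 2 (0.033) and with robust moderation (0.0424). Klf5, a growth and differentiation factor of lung epithelium and smooth muscle, had 11.9, 14.4 and 16.2 FPKM in Fra-2tg, against 11.6, 13.8 and 11.9 FPKM in WT. The groups overlapped (log2 fold change 0.17 ± 0.12, SE; interval -0.11 to 0.46; limma adjusted p = 0.323).

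Klf3 is a repressor that recruits CtBP proteins and acts in blood and fat cells. It had 27.4, 25.7 and 32.7 FPKM in Fra-2tg, against 28.1, 32.3 and 35.5 FPKM in WT, with overlapping groups. Klf7, known from developing neurons, had 6.92, 5.11 and 9.00 FPKM in Fra-2tg, against 8.15, 8.09 and 12.0 FPKM in WT. Fra-2tg replicate 3 was above 2 of the WT mice. Klf9, a repressor induced by glucocorticoids and thyroid hormone, had 15.8, 21.7 and 28.5 FPKM in Fra-2tg, against 23.9, 26.2 and 28.1 FPKM in WT. Its Fra-2tg values spanned 1.81-fold and its WT values 1.18-fold, and the highest of all was a Fra-2tg mouse. Klf10, a repressor of the TGF-beta inhibitor gene Smad7, had 22.4, 15.9 and 18.7 FPKM in Fra-2tg, against 21.2, 18.4 and 23.6 FPKM in WT, again with overlap. The log2 fold changes of Klf3, Klf7, Klf9 and Klf10 were -0.16, -0.39, -0.27 and -0.15, with limma adjusted p of 0.355, 0.221, 0.345 and 0.469. Their 95% intervals all held 0 and reached from -0.90 for Klf7 to 0.20 for Klf9. An exon of Klf3 overlaps the opposite-strand gene Gm20033, and exons of Klf7 overlap Gm26649 and Gm13748. The sources used here do not say if strand was used in counting, and the values of Klf3 and Klf7 are uncertain for that reason.

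**Figure D2:**
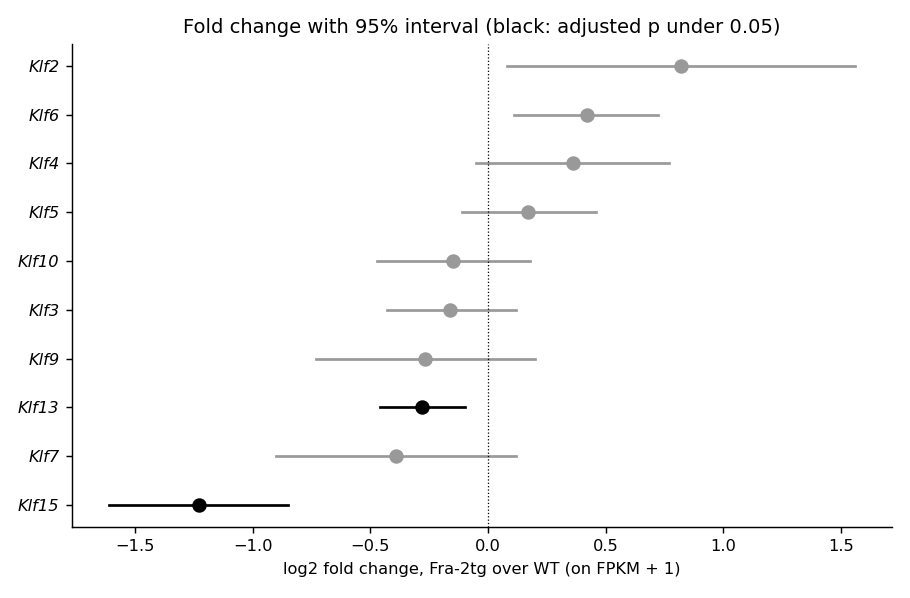
Log2 fold change, Fra-2tg over WT, of each Krueppel-like factor on the log2(FPKM + 1) scale, with its 95% interval from limma (n = 3 each). The estimates run from -1.23 for Klf15 to 0.82 for Klf2, and Klf15 and Klf13 are the 2 called genes.

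Ordered by mean FPKM, Fra-2tg lungs had Klf2 (265), Klf6 (48.4), Klf4 (48.3), Klf3 (28.6), Klf13 (23.9), Klf9 (22.0), then Klf10, Klf5 (14.2), Klf7 (7.01) and Klf15 (5.22). Neighbours in that order had separate ranges over the mice only at Klf2 and Klf6, Klf4 and Klf3, and Klf5 and Klf7. In WT lungs the order was Klf2, Klf4, Klf6, Klf3, Klf13, Klf9, Klf10, Klf15, Klf5 and Klf7. Separate ranges stood there at Klf2 and Klf4, Klf9 and Klf10, and Klf10 and Klf15. Klf2 ranked highest in all 6 libraries and lay above 97.6% of tested genes, and Klf7 lay above 43.4%. Klf15 was rank 10, 9 and 10 of the 10 in Fra-2tg, against rank 8 in each WT library.

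The FPKM of the 10 members summed to 399.8, 560.1 and 485.8 in Fra-2tg, against 340.2, 452.0 and 322.7 in WT. Without Klf2 the sums were 189.8, 216.6 and 243.4 FPKM in Fra-2tg, against 203.9, 224.8 and 221.1 FPKM in WT, and the group means were the same to 4 digits, at 216.6 FPKM. Klf2 made up 52.5%, 61.3% and 49.9% of the sum in Fra-2tg, against 40.1%, 50.3% and 31.5% in WT. Fra-2tg replicate 3 lay below WT replicate 2 in that share, so the groups overlapped (exact two-sided permutation test, p = 0.2, where 3 against 3 mice cannot give less than 0.1). Klf15 made up 0.934%, 0.993% and 1.31% in Fra-2tg, against 3.72%, 3.07% and 4.18% in WT, with separate groups and the smallest p possible (exact permutation test, p = 0.1). This share contains the Klf15 values already given and is no separate result.

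**Figure D3:**
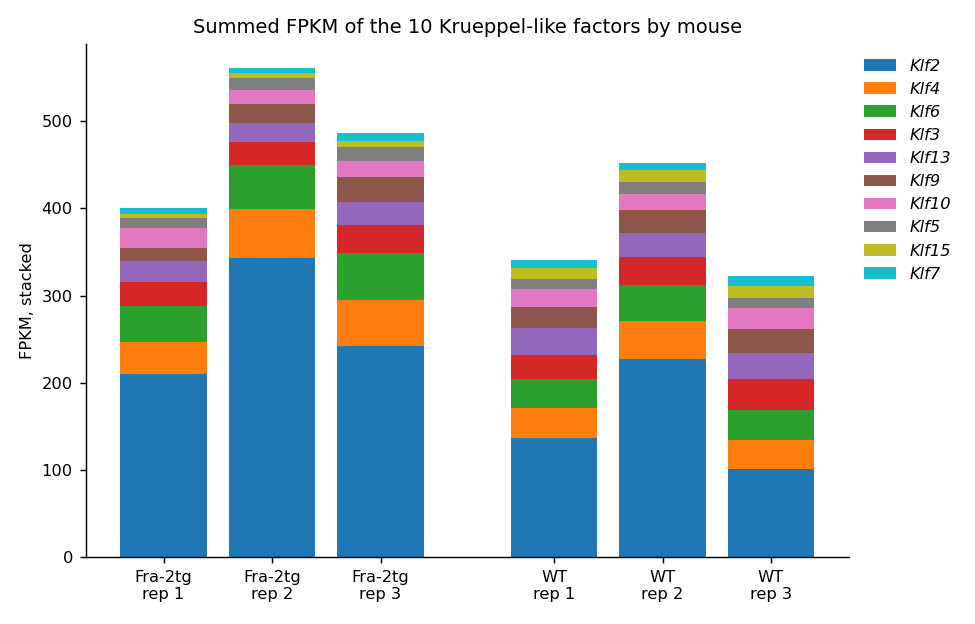
Summed FPKM of the 10 Krueppel-like factors in each lung, stacked by gene, with the Fra-2tg lungs left of the WT lungs. Klf2 is 49.9% to 61.3% of the stack in Fra-2tg and 31.5% to 50.3% in WT, and the rest sums to 189.8 to 243.4 FPKM in Fra-2tg and 203.9 to 224.8 FPKM in WT.

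Log2 ratios between members of the same library were compared for 6 pairs. The ratio of Klf9 over Klf15, the glucocorticoid-responsive pair, was 2.08, 1.97 and 2.16 in Fra-2tg, against 0.92, 0.91 and 1.06 in WT. The groups were separate by a difference of 1.11 (exact two-sided permutation test, p = 0.1, the smallest possible; Benjamini-Hochberg over 6 pairs, 0.3). Klf9 itself had overlapping groups, and the ratio contains the Klf15 values already given, so it is no separate result. For Klf2 over Klf4 the log2 ratio was 2.51, 2.62 and 2.22 in Fra-2tg, against 1.95, 2.40 and 1.62 in WT, with overlapping groups (exact permutation p = 0.2). For Klf6 over Klf4 the means were 0.02 ± 0.16 in Fra-2tg and -0.04 ± 0.08 in WT, and for Klf3 over Klf13 0.25 ± 0.07 in Fra-2tg and 0.12 ± 0.22 in WT (SD, n = 3 each; exact permutation p = 0.6 and 0.5). Klf5 over Klf4 differed by -0.18 and Klf10 over Klf2 by -0.98, Fra-2tg minus WT (exact permutation p = 0.2 each). No pair passed the adjustment, and with a smallest possible p of 0.1 none could have.

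Klf2, Klf4, Klf5 and Klf6 had the same 3 highest libraries, Fra-2tg replicate 2, Fra-2tg replicate 3 and WT replicate 2. Those 3 were the highest for 1.84% of tested genes. Klf2 and Klf4 put all 6 libraries in 1 order, as did Klf5 and Klf6. WT replicate 2 was also the WT library nearest to Fra-2tg on the first principal component of all tested genes, at -18, against 27.9, 32.8 and 29 for the Fra-2tg libraries and -31 and -40.6 for the other WT libraries. Tsc22d3, Per1, the clock gene Dbp and Fosl2, the transgene's own gene, had the same 3 highest libraries. They were compared after their values were seen and are no separate evidence. Among the other members, Klf13 and Klf15 had the 3 WT libraries highest, as had 22.4% of tested genes. Klf3 and Klf9 had Fra-2tg replicate 3, WT replicate 2 and WT replicate 3 highest, as had 6.09%. A shared cause was not tested. The glucocorticoid-induced Tsc22d3 had 59.5, 157 and 125 FPKM in Fra-2tg, against 80.3, 123 and 64.5 FPKM in WT. The clock gene Per1, also induced by glucocorticoids, had 7.58, 27.2 and 31.9 FPKM in Fra-2tg, against 10.01, 20.9 and 6.05 FPKM in WT. For both, Fra-2tg replicate 1 was among the low libraries. Fosl2 itself had 12.3, 17.4 and 15.8 FPKM in Fra-2tg, against 11.1, 13.9 and 11.2 FPKM in WT (log2 fold change 0.30 ± 0.14, SE; limma adjusted p = 0.158). Its groups overlapped, so the transgene's own gene does not separate the labels.

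Whole lung mixes many cell types, and fewer cells of a type and less RNA per cell cannot be told apart. Beside each count in this paragraph stand the shares of all tested genes, 13.0% called lower and 13.6% higher. Of 14 endothelial markers, 8 were called lower and 1 higher, and their summed FPKM was 1913 to 2097 in Fra-2tg, against 2598 to 2806 in WT. The markers did not move together, since Pecam1 had 298, 302 and 293 FPKM in Fra-2tg, against 280.5, 296 and 314 FPKM in WT. Of 10 smooth muscle and pericyte markers, 5 were called lower and 1 higher, summing to 448 to 524 FPKM in Fra-2tg and 602 to 659 FPKM in WT. All 8 B cell markers were called lower, summing to 39.6 to 57.8 FPKM in Fra-2tg and 308, 143 and 184 FPKM in WT. Lists of tissues that express Klf15 strongly also differed. The adipocyte list summed to 15.6 to 18.2 FPKM in Fra-2tg and 45.5 to 76.2 FPKM in WT, with all 5 tested of 7 markers called lower and Lep and Ucp1 below 0.1 FPKM in every library. Heart and skeletal muscle markers summed to 69.1 to 127 FPKM in Fra-2tg and 238 to 382 FPKM in WT, with 5 of the 6 tested of 8 called lower. The skeletal muscle genes Acta1 and Myh1, named after their values were seen, were below the filter and went the other way. Acta1 had 0.343 to 1.05 FPKM in Fra-2tg and 0.0428 to 0.155 FPKM in WT, and Myh1 0.154 to 0.173 FPKM in Fra-2tg and 0.0283 to 0.0624 FPKM in WT. With no filter 2 of the 8 were called higher. Sums were 3025 to 3409 FPKM in Fra-2tg and 3884 to 4162 FPKM in WT for alveolar type 1 markers, and 2643 to 3013 FPKM in Fra-2tg and 2708 to 3027 FPKM in WT for fibroblast markers. Neutrophil markers summed to 159 to 182 FPKM in Fra-2tg and 263 to 636 FPKM in WT, and red cell and platelet markers to 921 to 1159 FPKM in Fra-2tg and 1280.1 to 2450.0 FPKM in WT. The airway list is set by Scgb1a1, listed at 0 in Fra-2tg replicate 2 and WT replicate 1, and summed to 2132 to 76391 FPKM in Fra-2tg and 3161 to 124876 FPKM in WT. Lymph node and thymus markers summed to 0.858 to 1.26 FPKM in Fra-2tg and 45.9, 1.60 and 1.31 FPKM in WT. The high value is that of WT replicate 1 alone, where Glycam1 had 40.4 FPKM. The same library had the highest B cell sum. The part of these cell types in the values of Klf2, Klf13 and Klf15 was not tested.

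Other members of the family gave calls in 1 direction. Of 16 other Krueppel-like and Sp factors 10 were tested. Limma called 4 lower and 0 higher, where 13.0% of all tested genes were called lower and 13.6% higher. At an unadjusted p under 0.05, 0 were higher and 5 lower, and the median log2 fold change was -0.23. Sp2 had 11.7, 11.8 and 11.8 FPKM in Fra-2tg, against 14.7, 14.2 and 13.9 FPKM in WT. Sp6, known from skin and tooth epithelium, had 3.17, 2.13 and 2.49 FPKM in Fra-2tg, against 4.18, 4.84 and 4.15 FPKM in WT. The repressors Klf12 and Klf11 were at 0.544 and 0.800 times WT (limma adjusted p = 0.0137 for Sp2, 0.0145 for Sp6, 0.0267 for Klf12 and 0.0357 for Klf11). All 4 had separate groups, as had 22.4% of all tested genes in the lower direction. Without Fra-2tg replicate 1, Fra-2tg replicate 2 or WT replicate 3, and with equal FPKM sums, 2 of the 4 were left. Klf1, Klf14, Klf17, Sp7, Sp8 and Sp9 were below the filter.

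Among 13 cofactors of the family, 3 rose and 1 fell, with a median log2 fold change of 0.00. Over all tested genes 13.6% were called higher and 13.0% lower. Sin3b (1.29 times WT), Hdac2 (1.18) and Sap30 (1.35), parts of the Sin3 deacetylase complex that Klf9, Klf10 and Klf13 can recruit, were the 3 that rose. Ctbp2, the partner of Klf3, was at 0.811 times WT (limma adjusted p = 0.0121, 0.0245, 0.0252 and 0.0317 in that order). With equal FPKM sums none of the 4 was called. Without Fra-2tg replicate 1, Fra-2tg replicate 2 or WT replicate 2, 1 was called higher, and without Fra-2tg replicate 2 or any 1 WT library none was called lower.

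The ERK5 and MEF2 pathway, which carries the flow signal to Klf2 and Klf4, had 3 of 12 genes called lower and 0 higher by limma. Of all tested genes 13.0% were called lower. At an unadjusted p under 0.05, 4 were lower and 1 higher, and the median log2 fold change was -0.10. The list mixes activators and inhibitors of MEF2, so its counts give no direction for the pathway. Hdac7, a class IIa deacetylase that holds MEF2 inactive, had 84.9, 72.6 and 79.6 FPKM in Fra-2tg, against 113, 109 and 112 FPKM in WT. Its relative Hdac5 was at 0.867 times WT and Map3k3, a kinase upstream of ERK5, at 0.806 times (limma adjusted p = 0.00399 for Hdac7, 0.0383 for Hdac5 and 0.0135 for Map3k3). With equal FPKM sums, or without WT replicate 3, 1 of the 3 was left. Hdac5 was not called with any 1 library left out (limma adjusted p from 0.0604 to 0.12).

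Endothelial genes downstream of Klf2 and Klf4 moved both ways. Of 22, 7 were called higher and 5 lower (of all tested genes, 13.6% and 13.0%), with a median log2 fold change of -0.03. Nos3, the endothelial nitric oxide synthase and a gene that Klf2 activates, had 30.6, 29.4 and 29.7 FPKM in Fra-2tg, against 11.5, 15.1 and 10.7 FPKM in WT. The Fra-2tg mice were nearly alike and all far above WT (ratio 2.41, limma adjusted p = 0.00165). Thbd, thrombomodulin, another gene that Klf2 activates, was called in the other direction, at 0.701 times WT (limma adjusted p = 0.00713). It was added after its values were seen. Ednrb, an endothelin receptor, was at 0.164 times WT, with 4.52, 4.81 and 5.71 FPKM in Fra-2tg, against 29.1, 27.1 and 35.4 FPKM in WT (limma adjusted p = 0.000279). The heme oxygenase Hmox1 was at 1.67 times WT and the chemokine Cxcl12 at 1.57 times (limma adjusted p = 0.00261 and 0.00278). To complete the calls, with values seen, Ccl2, Ptgds, Sele and Selp were higher and Ace, Icam1 and Vcam1 lower. Only 3 of the 5 were called lower without Fra-2tg replicate 1 or Fra-2tg replicate 2, and 2 with equal FPKM sums.

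Among 7 lymphocyte trafficking genes under Klf2, 2 were called lower and 1 higher (of all tested genes, 13.0% and 13.6%). The median log2 fold change was 0.09. S1pr4, a sphingosine 1-phosphate receptor of lymphocytes, had 11.5, 11.8 and 9.17 FPKM in Fra-2tg, against 21.8, 15.2 and 20.9 FPKM in WT. Its groups were separate (ratio 0.559, limma adjusted p = 0.0127). Cxcr3, a chemokine receptor of effector T cells, had 6.08, 6.51 and 5.20 FPKM in Fra-2tg, against 3.52, 2.29 and 2.56 FPKM in WT. All Fra-2tg values were above all WT values (ratio 2.12, limma adjusted p = 0.00575). Without WT replicate 3, 1 was lower, and without WT replicate 1, 2 were higher. T and natural killer cell markers summed to 74.7 to 112 FPKM in Fra-2tg and 101 to 145 FPKM in WT, with 4 of 10 tested called lower and 1 higher, and the part of these cells was not tested.

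Metabolic genes linked to Klf15 gave 5 of 13 tested called lower and 2 higher (of all tested genes, 13.0% and 13.6%). The median log2 fold change was -0.11. Slc2a4, the insulin-responsive glucose transporter that Klf15 activates in muscle and fat, had 1.39, 1.33 and 1.47 FPKM in Fra-2tg, against 3.55, 2.84 and 3.05 FPKM in WT. The hormone gene Adipoq, also a marker in the adipocyte list, was at 0.212 times WT. Pparg and Cebpa, regulators of fat cells that macrophages and alveolar epithelium also express, were at 1.60 and 1.45 times WT, and all 4 had separate groups (limma adjusted p = 0.00238 for Slc2a4, 0.00274 for Adipoq, 0.00274 for Pparg and 0.00317 for Cebpa). Macrophage and monocyte markers beside them had 8 of 11 called higher and 1, Lyz2, lower, and with Lyz2 as the most abundant they summed to 1746 to 2130 FPKM in Fra-2tg and 4203 to 4587 FPKM in WT. Alveolar type 2 markers had 7 of 10 called higher and 1, Sftpc, lower. Each of the 3 Fra-2tg libraries lists Sftpc at 0, against 25397, 33559 and 26567 FPKM in the WT libraries. Scgb1a1, also very abundant, is listed at 0 in Fra-2tg replicate 2 and WT replicate 1, so such zeros occur in both genotypes. Whether these zeros are measured values is not known here, and the lower call of Sftpc is uncertain for that reason. As listed, Sftpc sets the summed FPKM of the alveolar type 2 list, which was 9201 to 9979 in Fra-2tg and 30656 to 40769 in WT. Sftpb, the next most abundant marker, went the other way, with 3460 to 3642 FPKM in Fra-2tg and 2056 to 2950 FPKM in WT. The part of these cells was not tested.

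Genes induced by glucocorticoids, among which Klf9 and Klf15 belong, had 4 of 17 called higher and 1 lower (of all tested genes, 13.6% and 13.0%). The median log2 fold change was 0.29. Fkbp5, a chaperone partner of the glucocorticoid receptor, had 9.58, 10.4 and 11.5 FPKM in Fra-2tg, against 6.71, 5.21 and 5.47 FPKM in WT. Its groups were separate and opposite in direction to those of Klf15 (ratio 1.80, limma adjusted p = 0.00394). Cdkn1a, a cell cycle inhibitor, was at 1.43 times WT and the metallothionein Mt1 at 2.38 times, while the sulfotransferase Sult1a1 was at 0.615 times (limma adjusted p = 0.017, 0.0294 and 0.0136). Without Fra-2tg replicate 3, WT replicate 1 or WT replicate 2, 2 of the 4 were called higher, and without WT replicate 3, 1 was. With robust moderation 2 were called higher. The lower calls numbered 2 without WT replicate 2 and 3 with equal FPKM sums without Sftpc and Scgb1a1.

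Clock genes, to whose output Klf9 and Klf15 belong, had 3 of 19 called lower and 1 higher (median log2 fold change -0.09). For this list and the next, the shares over all tested genes were 13.0% called lower and 13.6% higher. Bhlhe40 was at 1.94 times WT, Cry2 at 0.733 times and Ciart, listed as Gm129, at 0.654 times (limma adjusted p = 0.00246, 0.00426 and 0.0198). Without Fra-2tg replicate 3 or WT replicate 3, 1 was called lower, and without Fra-2tg replicate 1 or WT replicate 2, 2 were called higher. Immediate early genes, which share rapid induction with Klf2, Klf4, Klf6 and Klf10, had 4 of 25 called lower and 2 higher (median -0.16). Ier3 had 103, 82.7 and 71.9 FPKM in Fra-2tg, against 186, 177 and 198 FPKM in WT. Fosb was at 0.202 times WT, Jun at 0.766 times and Myc at 2.42 times, with separate groups in all (limma adjusted p = 0.00239 for Ier3, 0.00397 for Fosb, 0.00511 for Jun and 0.00524 for Myc). Without WT replicate 2, 4 were called higher, and without any other library except Fra-2tg replicate 3, 1 was.

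Of 13 TGF-beta response genes linked to Klf10, 2 were called lower and 1 higher, with a median log2 fold change of 0.04. For this list and the Klf5 list, the shares over all tested genes were 13.0% called lower and 13.6% higher. The lower genes encode inhibitors of the pathway. Smad6 had 39.9, 45.4 and 44.3 FPKM in Fra-2tg, against 83.4, 79.3 and 88.6 FPKM in WT. Smad7, the gene that Klf10 represses, had 18.6, 13.6 and 16.5 FPKM in Fra-2tg, against 31.0, 26.9 and 30.5 FPKM in WT. No Fra-2tg mouse reached the lowest WT mouse for either (ratios 0.516 and 0.552, limma adjusted p = 0.00102 and 0.00398). The receptor Tgfbr1 was at 1.39 times WT (limma adjusted p = 0.0342) and was not called without Fra-2tg replicate 1 or any 1 WT library, nor with equal FPKM sums. Among 10 epithelial genes linked to Klf5, 4 were called higher and 2 lower, with a median log2 fold change of 0.16. Ccnd1 (1.25 times WT) and Nkx2-1 (1.23) were higher, and Pdgfa (0.743) and Egfr (0.714) lower (limma adjusted p = 0.0154, 0.0221, 0.019 and 0.0354). With equal FPKM sums without Sftpc and Scgb1a1 none was called higher. Without Fra-2tg replicate 1, Fra-2tg replicate 3 or WT replicate 1, 1 was higher, and without WT replicate 3 none was. Without Fra-2tg replicate 3 none was called lower, and without Fra-2tg replicate 1, Fra-2tg replicate 2, WT replicate 1 or WT replicate 3, 1 was.

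**Figure D4:**
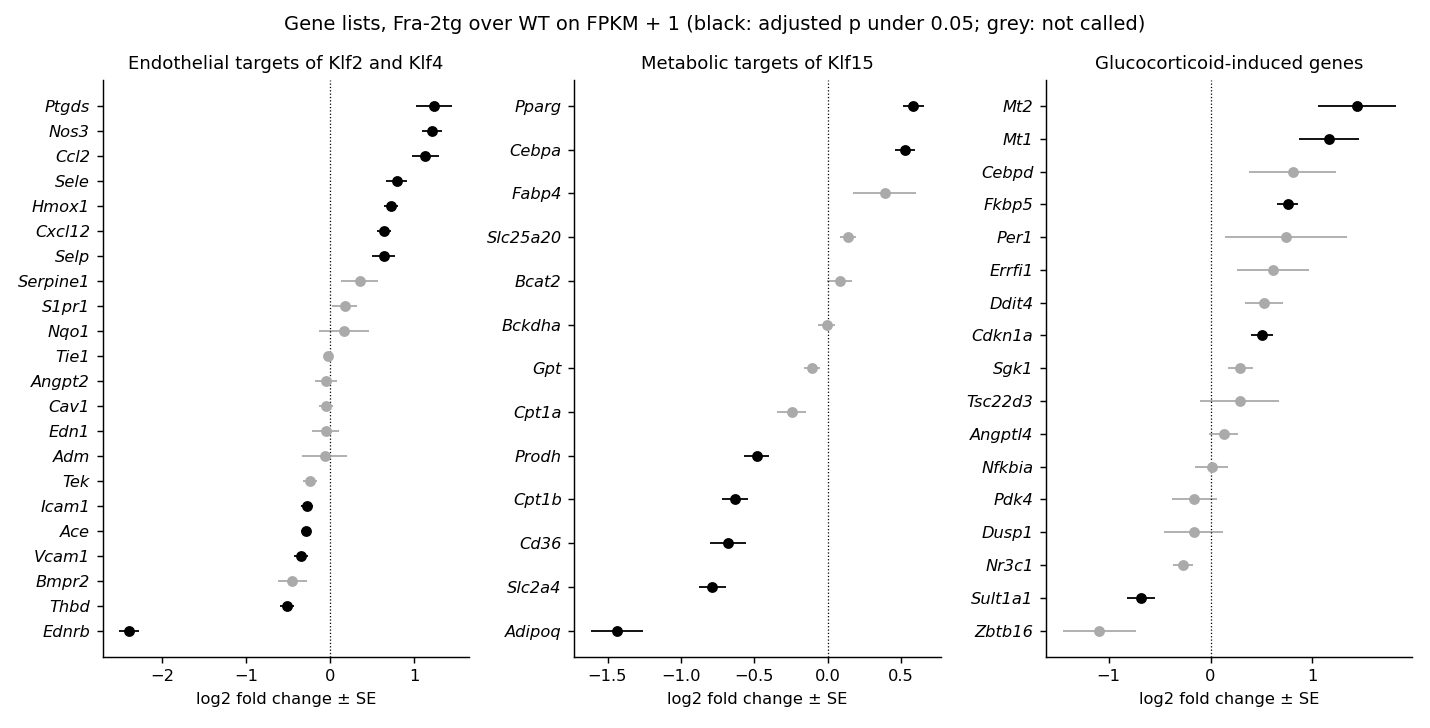
Log2 fold change ± SE, Fra-2tg over WT on the log2(FPKM + 1) scale, of each tested gene in the lists of endothelial targets of Klf2 and Klf4, metabolic targets of Klf15 and glucocorticoid-induced genes, with genes at a limma adjusted p under 0.05 in black and the others in grey (n = 3 each). Called genes stand on both sides of 0 in each list. They number 7 higher and 5 lower, 2 higher and 5 lower, and 4 higher and 1 lower in that order. Over all tested genes 13.6% were called higher and 13.0% lower.

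No member changed sign in any of the 17 alternatives. The log2 fold change of Klf15 ran from -1.39 to -1.04, that of Klf13 from -0.43 to -0.23 and that of Klf2 from 0.56 to 1.13. Setting the sums of FPKM equal without Sftpc and Scgb1a1 shifted the median of all genes to -0.13. With that shift included, Klf15 was at -1.36, Klf13 at -0.43, Klf2 at 0.67, Klf4 at 0.21 and Klf6 at 0.27.

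**Figure D5:**
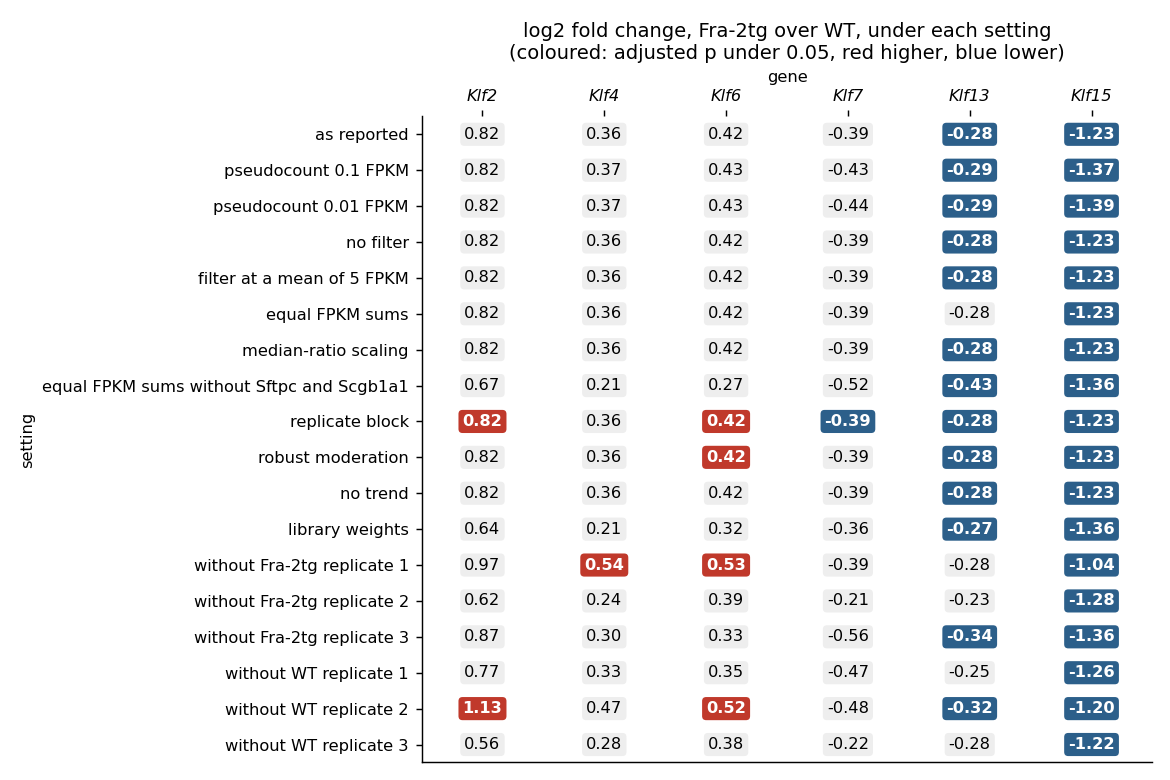
Log2 fold change, Fra-2tg over WT, of the 6 Krueppel-like factors that were called in at least 1 setting, with settings down the page and genes across, and calls in red (higher) or blue (lower). Klf15 was called in every setting shown, at -1.39 to -1.04, Klf13 in 12 of the 17 alternatives, and Klf2 in 2.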

How the data were processed

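Poly(A) RNA of whole lung was sequenced with a kit that keeps strand, per the labels' protocols. The deposited values are FPKM made by the authors, 1 column per mouse. The submitters' processing notes list GRCm38 (mm10) and the tools Cufflinks 2.2.1, TopHat2 2.0.10, SAMtools 0.1.19, Bowtie 1.0.0 and FastQC. Their roles, settings and use of strand, and the reads behind each value, are not given in the sources used here. FPKM per library summed to 593094 to 646668 in Fra-2tg and 542233 to 664456 in WT. Rough depths from values below 0.15 FPKM were 0.929, 1.21 and 1.35 in Fra-2tg and 1, 0.942 and 0.854 in WT, relative to WT replicate 1.

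From these values log2(FPKM + 1) was computed, a scale that understates the change of low genes. The 14855 of 23284 genes averaging 0.5 FPKM or more were fitted with limma 3.58.1 in R 4.3.3, with a variance trend and no covariate. P-values were two-sided and Benjamini-Hochberg adjusted over all tested genes, and the call threshold was 0.05. The procedure was tested on simulated data. Sums and ratios were tested with exact permutation tests in scipy 1.17.1, and figures drawn with matplotlib 3.10.9. Members and gene lists were chosen with earlier results of these data known.

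All 10 members are named. Of every other list up to 4 called genes with the smallest adjusted p are named, and for each called member the 2 genes nearest in profile, predicted and small RNA genes aside. For cell type lists the summed FPKM is given, and their 2 most abundant markers and markers near 0 could be named. A few genes that it names are not reported here. Where a gene outside this rule appears, the text says so. Alternatives were pseudocounts of 0.1 and 0.01 FPKM, no filter, a filter at 5 FPKM, 3 other scalings, robust moderation, no trend, a replicate block, library weights and each library left out.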

Additional observations from a re-analysis of the deposited data

How the results depend on the processing

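In all, 3963 genes were called, 2301 with equal FPKM sums, and 2229 to 3189 with 1 library left out, where the fewest came without WT replicate 3 and 2510 without Fra-2tg replicate 1. Of these calls 51.1% were higher, but 25% with equal sums without Sftpc and Scgb1a1. The members called higher numbered 0 as reported, 1 with robust moderation (Klf6) and 0 to 2 with 1 library left out (Klf4 and Klf6 without Fra-2tg replicate 1, Klf2 and Klf6 without WT replicate 2). Members called lower numbered 2 as reported, 1 with equal sums and 1 to 2 with 1 library left out. Klf15 was called in all 17 alternatives (limma adjusted p from 0.00165 to 0.0158) and Klf13 in 12 (0.0215 to 0.202). The causes were not tested. No result reversed.

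Same-numbered Fra-2tg and WT libraries deviated from their group means with correlations of -0.054, 0.014 and 0.163. With 3 mice per genotype these correlations cannot decide if the numbers pair the mice, and pairing is not known here. With the replicate block, 2 members were called higher (Klf2, limma adjusted p = 0.0282; Klf6, 0.0395), and Klf7 (0.046) joined Klf13 and Klf15 as lower. Of the glucocorticoid-induced genes 7 were called higher and 3 lower with the block, against 4 and 1 without it. Not every library correlated best with the one of its own number. The number of mice, 3 per genotype, limits what differences could be called, and the reads behind each FPKM are not known here.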
